A study of Mus musculus with 3 samples.

Results

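The conjugation enzymes of the palate were followed on 3 Affymetrix Mouse Genome 430 2.0 arrays, 1 each before, during and after fusion of the palatal shelves. The genes were chosen by symbol alone: every probe set that names a single gene whose symbol begins with *Gsta*, *Gstm*, *Gstp*, *Gstt*, *Gsto*, *Gstz*, *Gstk*, *Mgst*, *Ugt* or *Sult* and goes on with a digit. This rule took 47 of the 18193 genes on the array, through 61 probe sets, and used no measured value. They comprise 23 glutathione transferases (3 *Gsta*, 7 *Gstm*, 2 *Gstp*, 4 *Gstt*, 2 *Gsto*, 1 *Gstz*, 1 *Gstk* and 3 *Mgst*), 13 sulfotransferases and 11 UDP-glycosyltransferases of the *Ugt* families.

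All 3 samples came from ICR mouse fetuses of embryonic day 14, labelled female, with no mutation or drug named. Maxillae were kept in suspension culture in BGJb medium, for 5 h for the sample before fusion, 24 h for that during fusion and 60 h for that after fusion. The edge of the palatal shelves was dissected before fusion and the median palatal tissue at the later stages, so stage, hours in culture and piece of tissue change together and cannot be told apart. The methods give 5 samples per stage, and whether their RNA was pooled is not stated. No difference between single arrays could be tested, and every value below describes these 3 arrays.

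Conjugation enzymes attach a polar group to small molecules and thereby make them soluble and ready for export. Glutathione transferases join the tripeptide glutathione to electrophiles, UDP-glucuronosyltransferases transfer glucuronic acid from UDP-glucuronate, and sulfotransferases transfer sulfate from PAPS, the activated form of sulfate. They are best known from the liver, and epithelia that meet air or food, such as those of the nose, airway and gut, also make them. Many of the genes respond to NRF2, a transcription factor that is held in check by KEAP1 and binds the antioxidant response element, and some to the aryl hydrocarbon receptor, which binds the dioxin response element.

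Signals were compared as ratios between arrays scaled to one trimmed mean. Each array had a floor, set by 81 probe sets for receptors of smell, of the vomeronasal organ and of bitter taste (their 95th percentile), at 19.4 before, 13.3 during and 14.7 after fusion. A signal below it was raised to it, so a ratio with only 1 array above the floor is a bound, written "at least". No ratio was given where both signals were below, or where the measured one did not exceed the other array's floor. The array before fusion had 12454 of the 18193 genes (68.5%) above its floor, the array during fusion 13574 (74.6%) and the array after fusion 13523 (74.3%). The only spread in the data was that between probe sets of the same gene, and over all genes its SD on the log2 scale was 0.37 (during over before), 0.46 (after over before) and 0.44 (after over during). Over the few conjugation genes with several measured probe sets it was 0.63 and 0.65 (3 genes) and 0.32 (4 genes), in the same order.

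More conjugation genes lay above the floor on each later array: 23 of 47 (48.9%) before, 27 (57.4%) during and 30 (63.8%) after fusion. Of all genes 68.5%, 74.6% and 74.3% were above it, and the floor itself was highest before fusion (19.4 against 13.3 and 14.7). Of the 47, 20 were above it on all 3 arrays and 15 on none. Those 15 were *Gstt4*, *Sult1a1*, *Sult2a2*, *Sult2a8*, *Sult3a1*, *Sult6b1*, *Ugt3a2* and the 8 *Ugt2* genes *Ugt2a3*, *Ugt2b1*, *Ugt2b5*, *Ugt2b34*, *Ugt2b35*, *Ugt2b36*, *Ugt2b37* and *Ugt2b38*. Another 9 were under the floor before fusion and above it after, whereas *Gstp3* and *Ugt3a1* went the other way. Among the 9, *Sult1c2* read 15.3 after fusion, which is below the floor of the first array.

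During fusion, 6 of the 27 genes with a ratio were over 2-fold higher than before and 2 were over 2-fold lower, where 5.76% of all genes with a ratio were higher and 3.36% lower. The median log2 ratio was 0.16 for the conjugation genes and -0.02 for all genes, and with the arrays scaled to the poly-A spike-in controls it was -0.10 beside -0.31 for all genes. After fusion, 15 of 31 were over 2-fold higher than before and 1 was lower, beside 12.9% and 9.87% of all genes, with medians of 0.80 and -0.07. Between the later arrays, 10 of 30 were over 2-fold higher after than during fusion and none was lower, beside 8.83% and 5.13% of all genes, with medians of 0.51 and -0.04.

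A gene that clears the floor only on its brighter array had to differ. The counts were therefore also taken over all 47 genes and over those above the floor on all arrays. The first keeps such genes among those called and widens only the base, so only the second is free of that condition. Of all 47 genes, 6 (12.8%) were higher and 2 (4.26%) lower during than before fusion, where the shares of all 18193 genes were 4.18% and 2.44%. After against before fusion, 15 (31.9%) were higher and 1 (2.13%) lower, where 9.66% and 7.37% of all genes were. For the 20 genes above the floor on all 3 arrays the counts were 5 (25%) higher and 1 (5%) lower during fusion, and 8 (40%) higher and 1 (5%) lower after it. The 11828 genes of the array above the floor throughout had 4.63% higher and 2.51% lower during fusion, and 10.2% and 9.98% after it. Between the later arrays 3 of the 20 (15%) were higher and none lower, against 5.72% and 5.11% of the 11828. In either counting the share of higher conjugation genes exceeded that of all genes, and the genes are related in sequence and partly lie side by side, so they are not independent of each other.

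**Figure D1:**
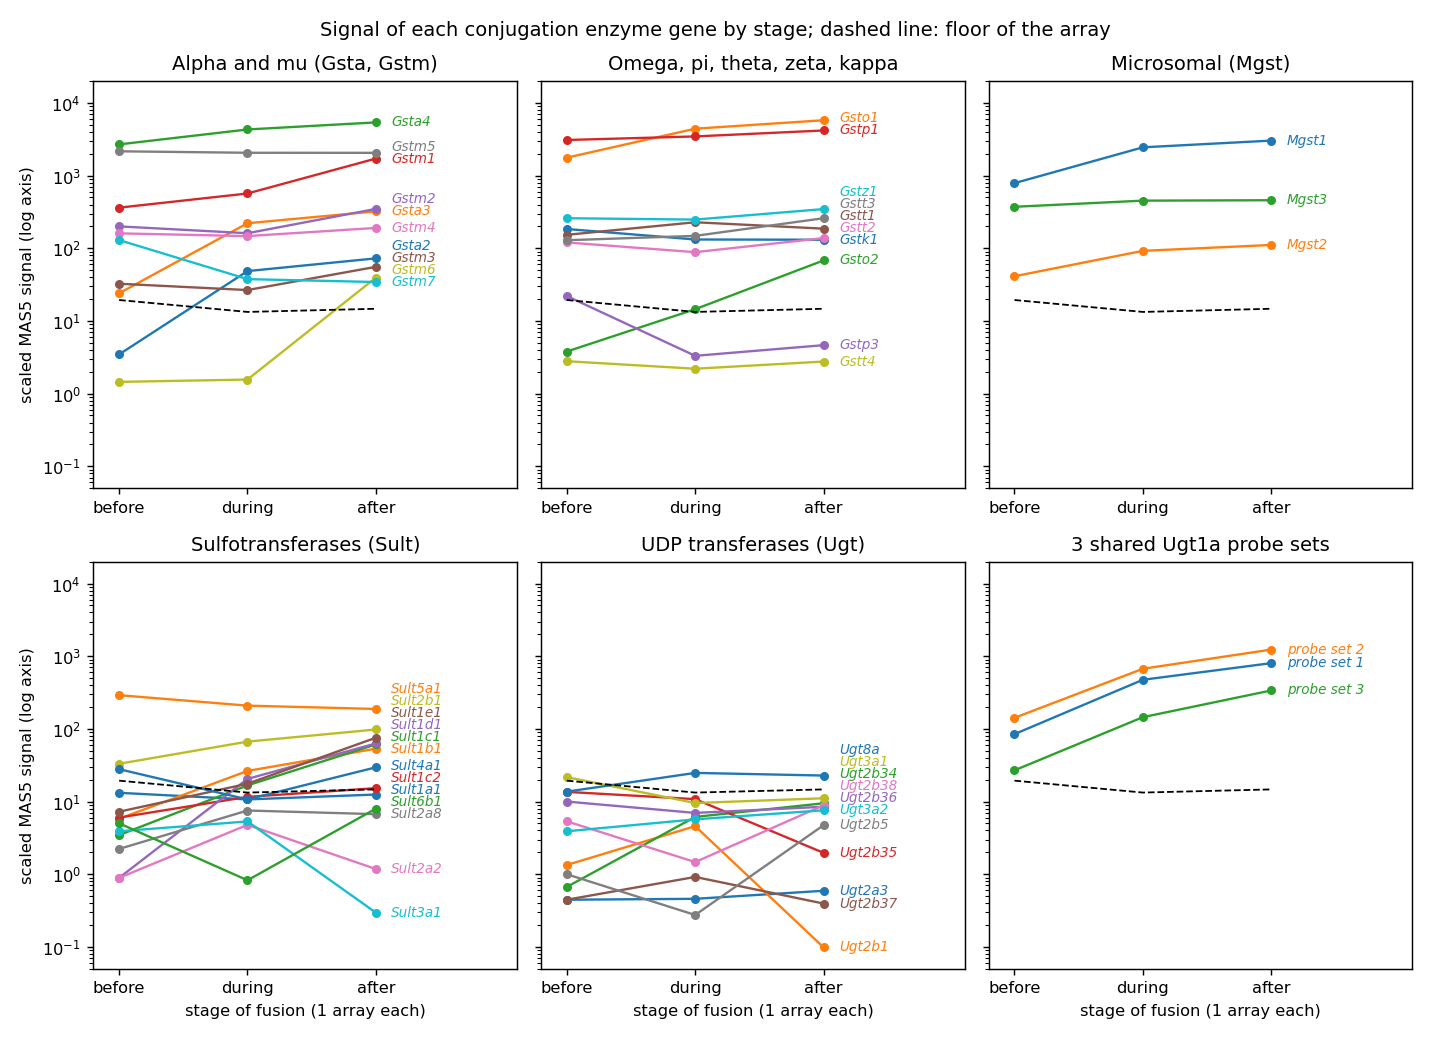
Scaled MAS5 signal (log axis) of each conjugation gene against stage of fusion, 1 array each; every line is the brightest probe set of a gene, the dashed line is the floor of the array, and the last panel holds the 3 probe sets shared by *Ugt1a* genes. *Gsta3* climbs from 24 to 322 and *Sult1e1* from 7.25 to 75.6, *Gstm7* goes from 129.6 to 34.3, and the *Ugt2* lines stay under the floor.

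In all, 19 of the 47 genes were past 2-fold in at least 1 comparison, and they followed a few courses. The 6 that were higher both during and after fusion than before it, and within 2-fold of each other on the later arrays, were *Gsta2*, *Gsta3*, *Gsto1*, *Mgst1*, *Mgst2* and *Sult2b1*. Another 9 were over 2-fold higher after than before fusion and were not shown to pass 2-fold during it. For 6 of these (*Gstm6*, *Gsto2*, *Sult1b1*, *Sult1c1*, *Sult1d1* and *Sult1e1*) the signal before fusion was under the floor, so the ratio during over before is a bound below 2-fold or not given. Of the 9, *Gstm1*, *Gstm6*, *Gsto2*, *Sult1b1*, *Sult1c1*, *Sult1d1* and *Sult1e1* were also over 2-fold higher after than during fusion, while *Gsta4* and *Gstt3* were not. *Gstm2* and *Gstm3* passed 2-fold only between the later arrays, *Gstm7* was lower on both later arrays, and *Sult4a1* was lower during fusion alone. Several of these were close to 2-fold and did not pass it under another scaling or floor: *Gsta2*, *Mgst2*, *Sult2b1* and *Sult4a1* during fusion, *Gsta4*, *Gstm6*, *Gstt3* and *Sult1b1* after it, and *Gstm2*, *Gstm3*, *Gstm6*, *Sult1b1* and *Sult4a1* between the later arrays. Others rest on probe sets with a suffix for alternative or shared transcripts. Without such probe sets *Gsta2* and *Mgst1* were not called during fusion, nor *Gsta2*, *Gstm6*, *Gsto2* and *Mgst1* after it. The same held for *Gstm3*, *Gstm6* and *Gsto2* between the later arrays.

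The alpha class of glutathione transferases handles, among others, products of lipid peroxidation and aflatoxin epoxide. All 3 alpha genes were over 2-fold higher after than before fusion. *Gsta3*, whose product detoxifies the epoxide of aflatoxin in the mouse, gave signals of 24, 221 and 322 in the order of the stages. It was therefore 9.22-fold higher during fusion than before and 13.4-fold higher after, the largest measured ratios of any conjugation gene. Its second probe set read 14.2, 33.9 and 55.4, with bounds of at least 1.75-fold and 2.86-fold. *Gsta2* had 3.46, 48.5 and 72.6, so it was at least 2.50-fold higher by the array during fusion and at least 3.74-fold by the last, on a probe set whose suffix marks alternative transcripts. On the brighter probe set of *Gsta3* and on that of *Gsta2*, most of the difference thus lay between the first array and the second. The second *Gsta3* probe set does not show this, with 1.64-fold between the later arrays after a first step known only as a bound. *Gsta4*, whose enzyme clears reactive aldehydes formed by lipid peroxidation, was bright from the start, with 2687, 4310 and 5394, a ratio of 1.60 during and 2.01 after fusion. *Gsta1* has no probe set of its own here, and the probe set that names it together with *Gsta2* and a predicted gene read 19.6, 29.0 and 56.1. Its ratio was 1.48 during over before, 1.93 after over during and 2.86 after over before fusion, so its larger step was the later one.

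The promoters of *Gsta3* and of the membrane-bound *Mgst1* are shown because these are the 2 higher genes that carry the core letters of the antioxidant response element. The sequences are the 250 bases before the annotated start, 5′ to 3′ on the strand of the gene, from RefSeq on GRCm38.p6, and the capitals mark the 9 matched bases.
*Gsta3*, chr1:21240335-21240584, + strand: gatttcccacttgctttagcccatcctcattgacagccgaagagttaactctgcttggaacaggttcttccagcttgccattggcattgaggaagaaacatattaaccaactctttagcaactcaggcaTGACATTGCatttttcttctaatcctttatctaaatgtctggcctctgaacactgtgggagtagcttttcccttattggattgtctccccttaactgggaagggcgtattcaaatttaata
*Mgst1*, chr6:138140277-138140526, + strand: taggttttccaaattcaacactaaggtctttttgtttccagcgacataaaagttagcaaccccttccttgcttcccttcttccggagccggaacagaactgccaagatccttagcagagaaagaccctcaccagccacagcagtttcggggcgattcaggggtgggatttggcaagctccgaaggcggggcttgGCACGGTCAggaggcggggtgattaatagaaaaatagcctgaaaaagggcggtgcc
In *Gsta3* the match TGACATTGC begins at base -121 from the start, and in *Mgst1* the match lies on the other strand, reads GCACGGTCA and begins at -56, in 1 of its 2 promoters.

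The letters TGACNNNGC were searched on both strands in windows from 250 bases before to 50 after the start. They occurred in 4 of the 42 conjugation genes with a promoter in the table (9.52%; *Gsta3*, *Gstm5*, *Gstm7* and *Mgst1*), against 3781 of 27025 genes (14%) and 12.4% of 32851 promoters in all. *Gstm7* (TGACAAAGC at -129, in 1 of its 2 promoters) was lower on the later arrays and *Gstm5* (TGACCACGC at -42) was level, so the carriers did not share a course. The dioxin response core GCGTG occurred in 10 of the 42 genes (23.8%) against 9500 of 27025 (35.2%) and 32.4% of the promoters, and in *Gstm5* one match overlaps the other motif. Neither share exceeded that of all genes, and a match of letters does not show a binding site.

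The omega class reduces oxidised substrates such as dehydroascorbate, the spent form of vitamin C. *Gsto1* gave 1764, 4417 and 5775 on the successive arrays, 2.50-fold and 3.27-fold over the first. Its other probe set, which has no suffix for shared transcripts, read 1110.4, 3822 and 5667, ratios of 3.44 and 5.10. *Gsto2*, its neighbour on chromosome 19, read 3.79, 14.5 and 68.0, which is at least 3.50-fold higher after than before fusion and 4.68-fold higher after than during it. *Gsto1* was within 2-fold between the later arrays, whereas *Gsto2* was not, and the step of *Gsto2* from before to during fusion could not be measured because its first signal was under the floor.

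The mu class conjugates many foreign electrophiles, and its 7 genes lie next to each other on chromosome 3 with no other gene between them. In that row they stand in the order *Gstm5*, *Gstm7*, *Gstm6*, *Gstm3*, *Gstm2*, *Gstm1* and *Gstm4*. *Gstm1* gave 362, 567 and 1715, which is 1.57-fold and 4.74-fold over the first array and 3.03-fold between the later ones. All 4 of its probe sets were higher after fusion, with ratios of 2.25, 2.98, 4.55 and 4.74 over before fusion. *Gstm2* had 200.0, 161 and 348, a ratio of 0.807 during fusion, 1.74 after against before and 2.16 after against during. *Gstm3* followed at 32.5, 26.6 and 55.5, with ratios of 0.818, 1.71 and 2.09, on a probe set that can bind related transcripts. Both had their lowest value on the array during fusion.

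*Gstm6* was read at 1.45, 1.56 and 39.4, under the floor until after fusion, when it was at least 2.03-fold higher than before and at least 2.96-fold higher than during fusion. *Gstm7* went the other way, with 129.6, 37.6 and 34.3, or 3.45-fold and 3.78-fold lower than before fusion. No other conjugation gene was counted as over 2-fold lower on both later arrays, and its second probe set did not share the difference during fusion: it read 32.5, 33.8 and 24.6, ratios of 1.04 and 0.754. *Gstm4* had 160.3, 147 and 190.4, and *Gstm5* had 2159, 2059.8 and 2056. Both were within 2-fold, so the 7 neighbouring genes did not share a course: 4 of 7 were over 2-fold higher after than during fusion, 2 were within 2-fold and *Gstm7* had a ratio of 0.914. Of all genes with a ratio, 8.83% were over 2-fold higher after than during fusion. Genes of the mu class are similar in sequence, and probe sets with a suffix for shared transcripts (*Gstm1* and *Gstm3*) may read more than 1 of them. The probe set of *Gstm6* carries the suffix for alternative transcripts.

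**Figure D2:**
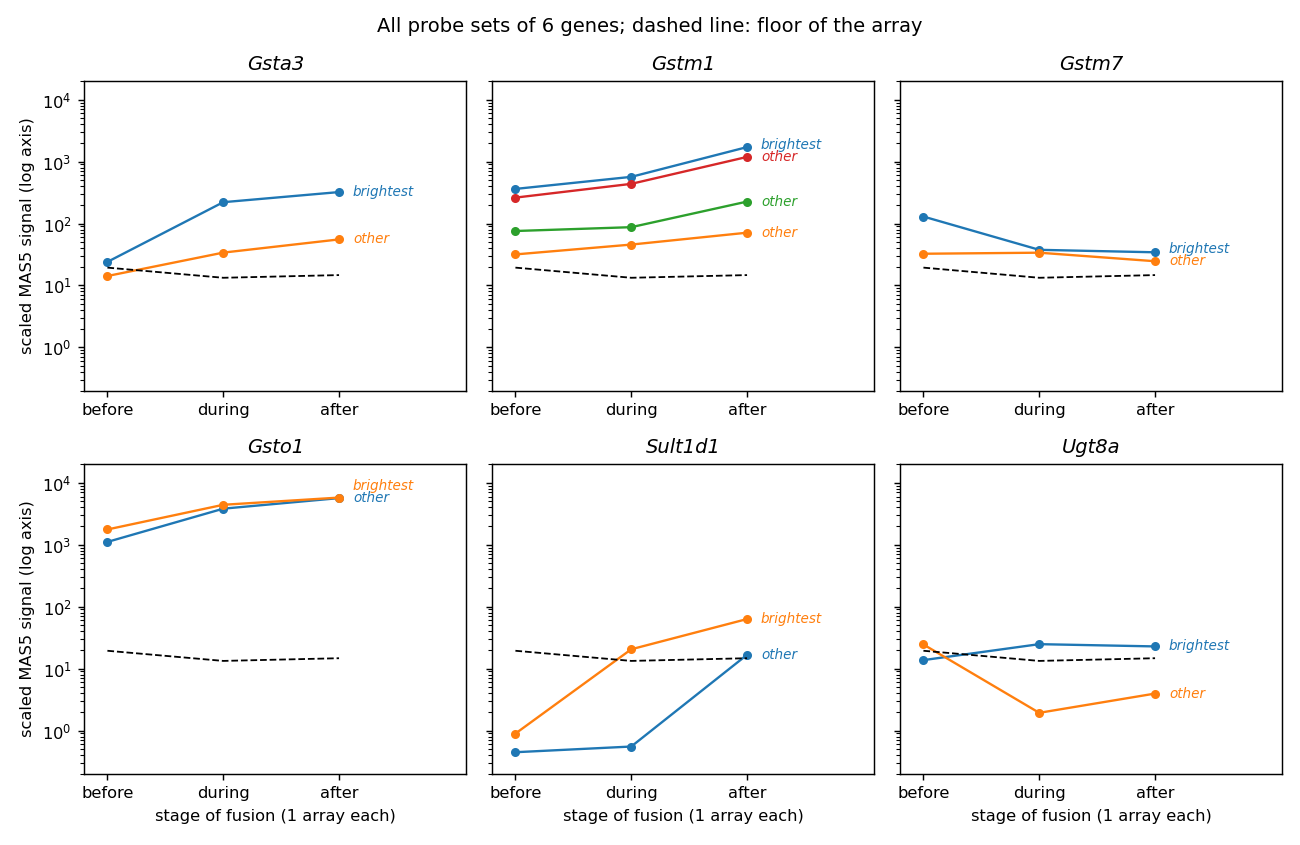
Scaled MAS5 signal (log axis) by stage for each probe set of 6 genes with more than 1 probe set, 1 array per stage; the dashed line is the floor. The 4 probe sets of *Gstm1* and both of *Gsto1* go up together. Those of *Gstm7* lie apart before fusion and close together later, and those of *Ugt8a* go in opposite directions after the first array.

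In the pi, theta, zeta and kappa classes 1 of 8 genes passed 2-fold, higher after than before fusion, where 9.66% of all genes were higher and 7.37% lower. *Gstt3*, of the theta class that acts on small halogenated compounds, had 129, 148 and 259, a ratio of 1.15 during and 2.02 after fusion. *Gstt1* with 153, 228 and 186 and *Gstt2* with 120.2, 88.3 and 138 were within 2-fold, and *Gstt4* was under the floor on all arrays. The 4 theta genes neighbour each other on chromosome 10.

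*Gstp1*, the pi-class enzyme common in epithelia, had signals of 3088, 3457 and 4175, ratios of 1.12 and 1.35. *Gstp3* read 22.0, 3.31 and 4.64, at least 1.65-fold lower during and at least 1.49-fold lower after fusion, bounds that do not reach 2-fold. *Gstz1*, an isomerase of tyrosine breakdown, read 259, 248 and 346, with ratios of 0.958 and 1.33. *Gstk1*, of mitochondria and peroxisomes, had 184, 132 and 131, and was 1.39-fold and 1.41-fold lower than on the first array. None of these 4 genes passed 2-fold.

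The microsomal transferases sit in membranes and are not related in sequence to the soluble ones. *Mgst1*, a transferase and peroxidase of the endoplasmic reticulum and mitochondria, gave 787, 2448 and 3029, with ratios to the first array of 3.11 and 3.85. Its other probe set lay below the floor throughout. *Mgst2*, which can make cysteinyl leukotrienes, read 41.2, 92.1 and 111, with ratios of 2.23 and 2.69. *Mgst3* read 372, 452 and 458, with ratios of 1.22 and 1.23. *Mgst1* and *Mgst2* both were over 2-fold higher by the array during fusion and differed by less than 2-fold from there on.

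**Figure D3:**
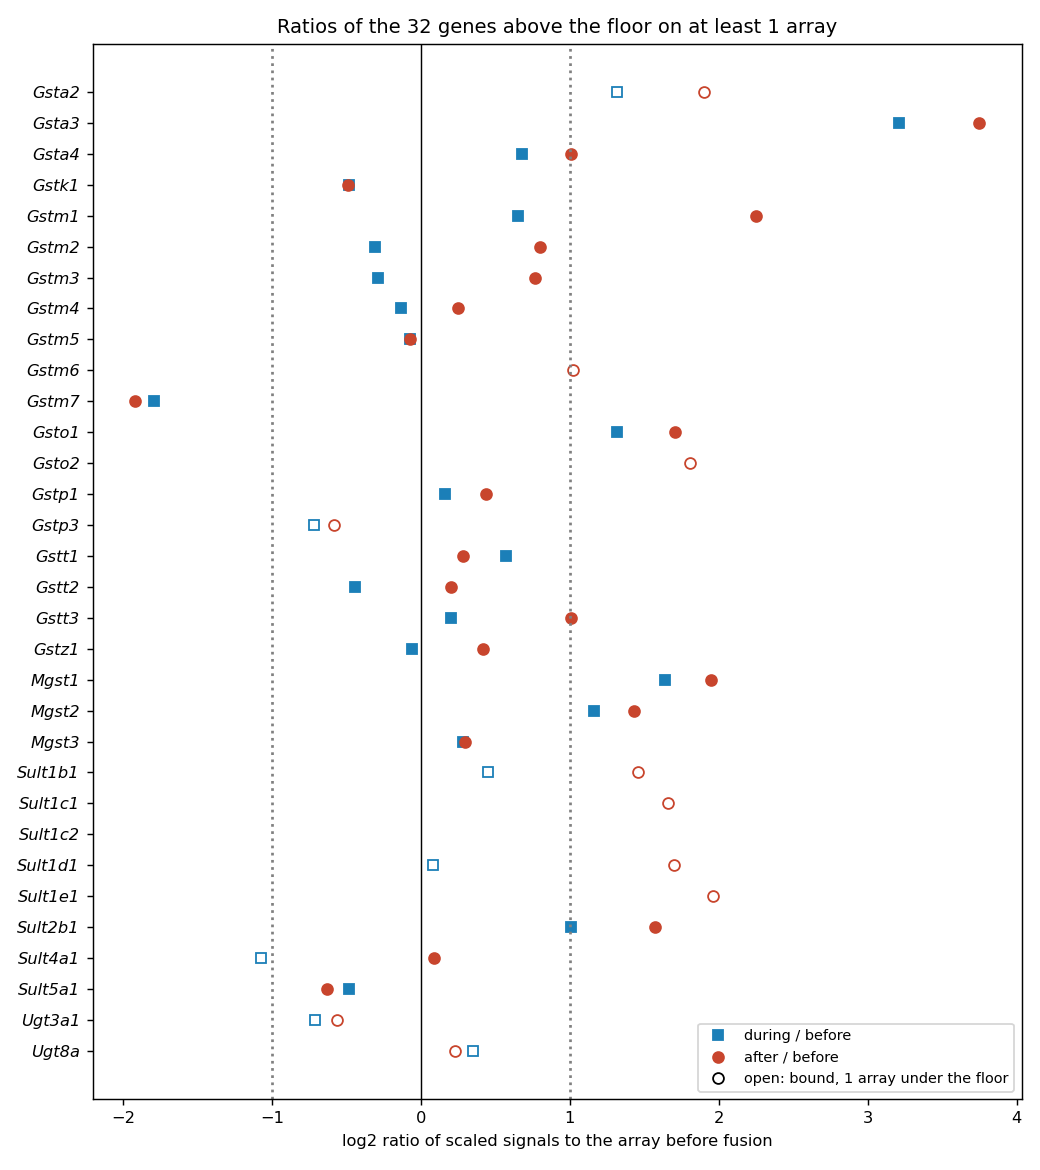
Log2 ratio of the later signals to that before fusion in the 32 genes that cleared a floor, during (squares) and after fusion (circles); open symbols are bounds, because 1 array was under the floor, and dotted lines mark 2-fold. Most symbols past 2-fold lie to the right, with *Gsta3* farthest at 3.21 and 3.75, and *Gstm7* lies past 2-fold on the left.

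Of all 13 sulfotransferases, 5 were over 2-fold higher after than before fusion and none was lower, beside 9.66% and 7.37% of all genes, and 5 were higher after than during fusion, beside 6.88%. Of the first 5 genes, 4 belong to the *Sult1* family, whose 6 genes were all under the floor before fusion and of which 5 were above it after, so these 4 ratios are bounds. *Sult1e1*, the estrogen sulfotransferase, had signals of 7.25 before, 17.6 during and 75.6 after fusion, at least 3.90-fold higher than before and 4.29-fold higher than during fusion. *Sult1d1*, which acts on catechols in the mouse, read 0.892, 20.5 and 63.1, at least 3.25-fold higher than before and 3.08-fold higher than during fusion. Its second probe set read 0.446, 0.551 and 16.7, at least 1.25-fold higher after than during fusion, and with the median of both probe sets the gene did not pass 2-fold between the later arrays. *Sult1b1*, which acts on thyroid hormone, had 5.80, 26.4 and 53.4, at least 2.75-fold higher than before and 2.02-fold higher than during fusion. These 3 genes stand in a run with the 8 *Ugt2* genes on chromosome 5, where the *Ugt2* genes were all under the floor on all arrays, with no signal over 13.6.

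*Sult1c1* read 3.46, 16.7 and 61.1, at least 3.15-fold higher than before and 3.66-fold higher than during fusion. Its neighbour on chromosome 17, *Sult1c2*, reached 15.3 after fusion from 6.02 and 11.6, just over the floor. *Sult1a1*, the phenol sulfotransferase, had 13.2, 10.7 and 12.5 and lay under the floor on all arrays. The *Sult1* genes above the floor were thus low even after fusion, with no signal over 75.6 against a floor of 14.7.

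*Sult2b1*, the cholesterol sulfotransferase of the epidermis, gave 33.1, 66.8 and 98.1, with ratios to the first array of 2.02 and 2.96. Its signal was above the floor on all arrays, unlike those of the *Sult1* genes, whose ratios during over before fusion are bounds below 2-fold or not given. *Sult4a1*, an orphan member known from brain, read 27.9, 10.7 and 29.6, at least 2.09-fold lower during fusion, 1.06 after over before and at least 2.22-fold higher after than during fusion. Its second probe set was under the floor before and during fusion and read 15.2 after. *Sult5a1* had 291, 209 and 188, 1.39-fold and 1.55-fold lower than before. The genes *Sult2a2*, *Sult2a8*, *Sult3a1* and *Sult6b1* were under the floor on all arrays.

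No *Ugt* gene with a probe set of its own passed 2-fold. *Ugt8a*, which makes the galactosylceramide of myelin and is no detoxifying enzyme, read 13.7, 24.8 and 22.8, with bounds of at least 1.28-fold and 1.17-fold over the first array. Its second probe set went the other way, with 24.5 before and values under the floor later, so no direction can be given. *Ugt3a1* read 21.7, 9.55 and 11.1, at least 1.63-fold lower during and at least 1.48-fold lower after fusion.

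The *Ugt1a* genes, which share their last exons and differ in the first, fall outside the rule because their probe sets name 8 genes each. The 3 such probe sets were higher at each later stage: 84.7, 474 and 803 in the first, 142, 672 and 1234 in the next and 26.9, 145 and 338 in the last. Ratios were 4.74 to 5.60 during over before, 8.72 to 12.6 after over before and 1.69 to 2.34 after over during fusion. Which of the 8 genes gave the signal cannot be read from probes in the shared exons. A probe set that names *Ugt2a1* and *Ugt2a2*, forms of the olfactory epithelium, read 4.90, 16.2 and 29.1, at least 1.5-fold higher after than before fusion.

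Genes around the conjugation enzymes were described from 9 lists chosen by function, with earlier results of these data known. NRF2 and its common targets, a list that includes no conjugation gene of the rule, had 8 of 27 genes over 2-fold higher during fusion and 14 of 28 after it, none lower, with medians of 0.25 and 1.07 on the log2 scale. *Ephx1*, which opens epoxides, had signals of 33.4, 405 and 899, a ratio of 12.1 during and 26.9 after fusion. *Hmox1*, the heme-degrading enzyme, had 108, 254 and 763, with ratios of 2.36 and 7.09. *Osgin1* read 5.35, 46.7 and 136, with bounds of at least 2.41-fold and 7.01-fold. *Srxn1*, which repairs peroxiredoxins, read 70.4, 218 and 412, ratios of 3.09 and 5.84. These 4 were named because they were the furthest past 2-fold after fusion. Other genes of the list were within 2-fold, such as *Txnrd1*, *Cbr1* and *Tkt*, with ratios of 1.21, 0.886 and 1.02 after over before fusion. *Nfe2l2*, which encodes NRF2, had 435, 666 and 1058 (ratios of 1.53 and 2.43), whereas *Keap1*, its inhibitor, had 304, 266 and 275 (0.872 and 0.905). Of all genes with a ratio, 5.76% were higher during and 12.9% after fusion. The list had a larger share, but it was chosen with earlier results of these data known, so this describes the list only. A link to the conjugation genes was not tested.

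Glutathione is the substrate of the largest class, and of the genes for its synthesis, breakdown and recycling 2 of 21 were higher and 2 lower during fusion and 6 of 23 higher, none lower, after it. The shares of all genes with a ratio were 5.76% higher and 3.36% lower during fusion, and 12.9% and 9.87% after it. *Gclm*, the modifier subunit of the rate-limiting ligase, had 226, 389 and 1066, a ratio of 4.72 after over before fusion, and *Gclc*, the catalytic subunit, had 207, 431 and 925, a ratio of 4.47. *Me1*, a source of NADPH for the reduction of glutathione, had 149.6, 413 and 738, a ratio of 4.93. *Ggt6*, of the gamma-glutamyl transferase family, read 4.79, 7.16 and 77.7, at least 4.01-fold higher. The higher genes thus included both subunits of the ligase. The lower genes during fusion were *Chac1*, a glutathione-degrading enzyme with 237, 68.5 and 293, and *Slc3a2*, the partner of *Slc7a11*, with 1790.2, 765 and 2332. *Gclc*, *Gclm*, *Gsr* and *Slc7a11* stand in the NRF2 list as well, and 10 of its 14 higher genes after fusion were outside the glutathione list.

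Related lists covered peroxidases with peroxiredoxins, and further proteins of the same fold or membrane family, not all of which use glutathione. Across all genes with a ratio 5.76% were higher and 3.36% lower during fusion, and 12.9% were higher after it. Of 9 peroxidases and peroxiredoxins 1 was higher during fusion and 2 after it, with medians of 0.09 and -0.08. *Gpx2*, the glutathione peroxidase of epithelia, had signals of 22.3, 379 and 654, ratios of 17.0 and 29.4, and *Gpx3* had 160.2, 187 and 461, with 2.88 after over before fusion. Among other proteins with the glutathione transferase fold or of the MAPEG membrane family, 2 of 15 were higher and 1 (*Mars1*, 1189, 521 and 712) lower during fusion and 4 of 17 higher after it. The 4 were the chloride channel proteins *Clic6* (176, 351 and 1098) and *Clic3* (2.79, 53.1 and 101), *Alox5ap* of leukotriene synthesis (33.0, 70.3 and 169) and the prostaglandin synthase *Ptges* (126, 175 and 277). The median log2 ratio of the second list after over before fusion was 0.41, beside -0.07 for all genes.

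Genes around the other cofactors were counted in the same way. Of all genes with a ratio, 5.76% were over 2-fold higher and 3.36% lower during fusion, and 12.9% and 9.87% after it. Of 10 genes for UDP-glucuronate and other UDP-sugars, a list that includes *Ugcg*, *Uggt1* and *Uggt2*, none passed 2-fold during fusion. After it 1 did, *Slc35a3*, a nucleotide sugar carrier (151, 239 and 309). *Ugdh*, which makes UDP-glucuronate, had 773, 593 and 457, which is within 2-fold with a ratio of 0.591 after over before fusion. Of the genes for sulfate uptake, PAPS synthesis and sulfatases none of 18 passed 2-fold during fusion, and 1 of 17 was higher and 3 lower after it. The PAPS synthases *Papss1* (1338, 1202 and 1482) and *Papss2* (119.8, 213 and 142) were within 2-fold, *Bpnt1*, which removes the spent cofactor, had a ratio of 3.32, and *Suox* was 2.19-fold lower, *Sulf1* 2.14-fold lower and *Arsk* 2.02-fold lower. The Golgi sulfotransferases for carbohydrates and tyrosine, a class apart from the *Sult* genes, had 2 of 24 higher (*Chst5* 6.58-fold, *Chst13* at least 2.39-fold) and 2 lower (*Chst2* 2.48-fold, *Ndst2* 2.01-fold) after fusion.

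Of 9 genes around the xenobiotic receptors, 1 was higher during fusion, and 1 was higher and 1 lower after it. *Ahr*, the aryl hydrocarbon receptor, had 244, 532 and 567 (ratios of 2.18 and 2.32). Its target *Cyp1b1* had 477, 494 and 222 (2.15-fold lower after fusion), and its target *Cyp1a1* had 65.8, 74.1 and 36.4. *Nr1i2* and *Nr1i3*, the receptors known for drug responses in liver, were under the floor on all arrays. Of 11 transporters for conjugates, the array during fusion had 1 higher and the array after it 2 higher and 3 lower. *Abcc1*, which exports glutathione conjugates, had 127, 162 and 456 (3.60-fold higher after than before fusion), *Abcc3* was at least 2.62-fold higher, and the lower ones were *Abcg2* (356, 276 and 148), *Slco3a1* (111, 61.7 and 49.8) and *Abcc10* (35.0, 19.6 and 2.76). The shares of all genes were 5.76% higher and 3.36% lower during fusion, and 12.9% and 9.87% after it. After fusion these few receptors and transporters had genes in both directions.

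**Figure D4:**
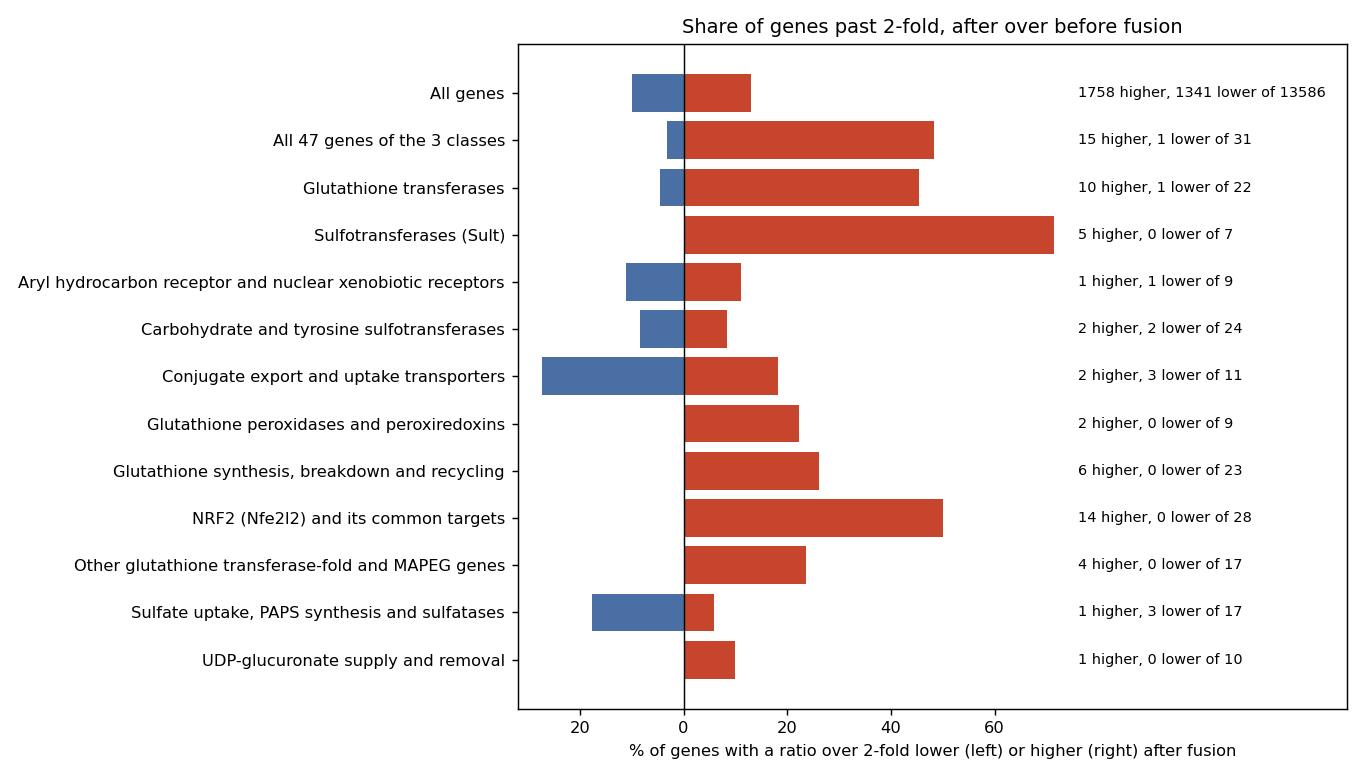
Share of genes with a ratio that were over 2-fold higher (right) or lower (left) after than before fusion, in %, for all genes, the conjugation genes and 9 lists chosen by function; each bar carries its count. The conjugation genes (15 higher and 1 lower of 31) and the NRF2 list (14 and 0 of 28) have more than 12.9% higher, the share of all genes.

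The signals of cell type markers differed between the arrays as well, and in such bulk samples more cells of a type and more RNA per cell cannot be told apart. Of all genes with a ratio, 12.9% were over 2-fold higher and 9.87% lower after than before fusion. All 15 pan-epithelial markers were above the floor on all arrays, with a summed signal of 12905 before, 22562 during and 29767 after fusion, and 7 of 15 were over 2-fold higher after fusion. The 5 keratins among them summed to 6904, 14838 and 21920.0 and the other 10 to 6001, 7724 and 7847, and *Esrp1*, *Esrp2* and *Trp63* were 1.43-fold, 1.81-fold and 1.63-fold lower after fusion. Markers of multiciliated cells had 7, 14 and 15 of 15 genes above the floor and summed signals of 299, 3522 and 25147. Markers of airway secretory (club) cells had 4, 9 and 9 of 12 above the floor and sums of 296, 8010.4 and 17929.5, with the defining *Scgb1a1* under the floor on all arrays (1.23, 0.918 and 1.87). Macrophage markers summed to 838, 1822 and 3853, with 13, 14 and 14 of 15 above the floor. The part of these cell types in the differences of the conjugation genes was not tested.

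Markers that went the other way were those of palatal mesenchyme, where all 16 were above the floor on all arrays, with sums of 15911, 9402 and 5858 and 10 of 16 over 2-fold lower after fusion, and endothelial cells with 3367, 1492 and 1363. Of the 12 endothelial markers 2 were over 2-fold lower after fusion, and 1 of these, *Aplnr* (1613, 425 and 252), made up most of the lower sum. Hepatocytes, the cells best known for these enzymes, gave no signal above the floor before or during fusion: 12 of 13 markers were under it on all arrays, with sums of 105, 54.5 and 73.8, and *Alb* read 11.4, 6.34 and 9.27. Of the 9 markers of olfactory sustentacular and Bowman gland cells 1, 3 and 4 were above the floor, with sums of 242, 174 and 219. *Sox9* alone gave 178, 116 and 87.0 of these sums. The only marker of this list over 2-fold higher after fusion was *Sult1c1* itself, and *Obp1a*, *Muc2* and *Cyp1a2* were under the floor on all arrays. Schwann cell and myelin markers summed to 2049, 1946 and 2755 with 10 of 11 above the floor on each array, beside *Ugt8a*. After over before fusion their median log2 ratio was -0.22. Past 2-fold were only *Mal*, higher with 38.2, 396 and 799.7, and *Sox10*, lower with 66.8, 44.7 and 24.2. Erythroid markers summed to 15359, 9926 and 1962, and those of osteoblasts to 1449.6, 5702 and 14487. The tissue of these arrays thus carried markers of several cell types in changing amounts.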

How the data were processed

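Per the labels and the study's methods, the authors computed 1 signal intensity per probe set and array with MAS5 in GeneChip Operating Software, background-corrected and on a linear scale, before they deposited the table. The methods name Trizol for the RNA and the labels a column kit. The table holds 45101 probe sets, of which 34945 name a single gene; names were brought up to date through gene IDs of GRCm38.p6 (47 of 47 conjugation genes matched). The deposited signals had trimmed means (2% cut from each tail) of 123.6, 150.0 and 139.6 in stage order, so arrays were multiplied by 1.11, 0.918 and 0.986. Each gene was read by its probe set brightest on average over the 3 arrays; 12 of the 47 genes had more than 1 probe set, and 13 of the brightest carry a suffix for alternative or shared transcripts. Genes past 2-fold in at least 1 comparison were named, with the other genes accounted for, and up to 4 higher and 3 lower genes of a function list. *Nfe2l2*, *Keap1*, *Txnrd1*, *Cbr1*, *Tkt*, *Chac1*, *Slc3a2*, *Mars1*, *Ugdh*, *Papss1*, *Papss2*, *Cyp1a1*, *Nr1i2* and *Nr1i3* were added after their values were seen. The genes and lists were chosen with earlier results of these data known. The number of arrays limits the precision, and no test or p-value was possible. Steps were checked on simulated ratios, with Python 3.11.15, numpy 2.4.6 and pandas 2.3.3. Alternatives were other floors, scalings, probe set choices and thresholds.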

Additional observations from a re-analysis of the deposited data

How the results depend on the processing

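No paired analysis was possible because each stage has 1 array, and no array could be left out. The count of conjugation genes over 2-fold higher after than before fusion stayed between 11 and 19 under every other floor, scaling and probe set choice. With no floor, 16 genes were higher and 7 lower during than before fusion, 5 lower after than before and 5 lower after than during, among them genes under the floor on all arrays. Only 1 gene was lower during than before fusion, in place of 2, with floors at the array medians, one common floor, the deposited signals or scaling to the hybridization controls, each without *Sult4a1*, or with a gene read by the median of its probe sets. After over during fusion, 6 in place of 10 were higher with the floor at the median or the hybridization controls. Scaling to the poly-A controls gave 2 lower after than before fusion, *Sult5a1* being the added one, and turned the median log2 ratio of the conjugation genes during over before fusion to -0.10 from 0.16, a scaling that moved the median of all genes by -0.29 (and by -0.40 after over before). *Gsta4* and *Gstt3* were under 2-fold with the poly-A or hybridization controls. At 1.5-fold, 4 were lower during and 2 after against before fusion. At 3-fold, 2 were higher and 1 lower during and 9 higher after against before fusion, and 5 higher after than during. At 4-fold these were 1 and 0, 2 (with 0 lower) and 2. Of 655 values of named genes under an alternative, 611 moved by less than the SD between probe sets over all genes. The 655 leave out values that had no ratio under the alternative. Scaling by 1 factor per array shifts all measured ratios equally, here by less than that SD, so for these settings the count is no check. In all, 12 changed sign (*Gstk1*, *Gstm7*, *Gstp1*, *Gstt3*, *Gstz1*, *Sult4a1* and *Ugt8a*), each in a comparison where the gene was within 2-fold; causes were not tested. Signals near the floor, as in the *Sult1* genes, give bounds only.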
